A study of Homo sapiens with 3 samples.

Results

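MM468/PR cells and the adriamycin-resistant line are 2 drug-resistant descendants of MM468, the MDA-MB-468 line of triple-negative breast cancer (TNBC), a breast tumour type without hormone receptors or HER2 amplification. Cells of the adriamycin-resistant line had been grown under adriamycin from 10 to 140 nM, and MM468/PR cells under paclitaxel from 2 to 320 nM. Both lines were named as the cells that survived exposure, and the labels do not state whether either line is 1 clone or whether drug was present at harvest. The labels give the same epithelial cell type and the genotype WT to all 3 libraries, and list parental MM468 as untreated. The comparison used 2 of the 3 RNA-seq libraries of the series, MM468/PR and the adriamycin-resistant line, with the parental library as a level to read them against. A gene was compared when 1 of the 2 resistant libraries had 10 or more counts, which left 19327 of the 46427 genes in the table. At that limit 298 genes had exactly 10 counts in the higher library and stayed in, and 287 genes with 9 counts stayed out. The libraries held 32704885 counts (parental), 47567927 counts (adriamycin-resistant) and 43242628 counts (MM468/PR). Gene counts are printed unscaled, so a parental count comes from the smallest library and is not directly comparable with the resistant counts. There was 1 library per line, so a difference between lines has no replicate check and no test, and the intervals given here are exact 95% binomial intervals that cover counting error only.

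Adriamycin (doxorubicin) intercalates into DNA and traps topoisomerase II on broken strands. Paclitaxel binds beta-tubulin inside the microtubule and stops its disassembly, so that cells halt in mitosis. Both drugs are carried out of cells by P-glycoprotein, the product of ABCB1, and resistance to either can also come with altered targets, drug metabolism, survival signalling or cell state. MDA-MB-468 is a basal-like epithelial line known for a very high level of EGFR. The labelled cell type was checked against its markers. All 8 epithelial markers had more than 1000 counts in both lines, for example 95501 and 79801 counts of KRT8 and 16319 and 22209 counts of EPCAM in the adriamycin-resistant line and MM468/PR. The basal markers EGFR (270028 and 230621 counts) and KRT5 (37417 and 29704 counts) were abundant as well. In the parental, adriamycin-resistant and MM468/PR libraries, KRT17 had 19732, 16415 and 26060 counts, CDH3 1164, 1777 and 3219, and TP63 54, 2453 and 553. KRT14 (2347, 515 and 474 counts) and FOXC1 (1533, 417 and 929) were below their parental counts in both resistant lines. Markers of other cell types were mixed. COL1A2, LUM and THY1 (fibroblasts) and TIE1 and CLDN5 (endothelium) had no count in either resistant library. Others were counted in the adriamycin-resistant line and MM468/PR, among them COL1A1 (1629 and 820 counts) and FAP (398 and 544) of the fibroblast markers. Of the immune markers, CD68 had 527 and 65 counts and CSF1R 235 and 112. The summed level of the 9 fibroblast markers was 43.0 CPM (a count scaled to its library total) in the adriamycin-resistant line and 32.7 CPM in MM468/PR, most of it from COL1A1 and FAP. The 6 immune markers summed to 16.1 and 5.30 CPM, most of it from CD68 and CSF1R, and the 6 endothelial markers to 2.48 and 1.34 CPM. The 6 luminal and hormone receptor markers summed to 143 and 121 CPM, most of it from ERBB2 and GATA3.

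MM468/PR differed from the adriamycin-resistant line by at least 2-fold for 33.4% of the genes compared. Higher in MM468/PR were 3757 genes, 19.4% of those compared, and lower were 2698 genes, 14%. Among protein-coding genes the shares were 13.5% higher and 14.6% lower. These 2 protein-coding shares are the background for counts of list members. A list share near them is not read as a lean of that list. A gene with under 10 counts in 1 line was compared through the other line alone, so the count minimum largely set its direction, and such genes are called one-sided here. They made up 1707 of the higher and 614 of the lower genes, and their number is given beside the lists and regions described. The median log2 fold change over all genes was 0.04 after TMM scaling, which sets the bulk of genes level, 0.28 when libraries were scaled by their totals only, and 0.30 on the TPM values. Of the genes past 2-fold, 58.2% were higher in MM468/PR after TMM scaling and 71.4% with library totals. With library totals 4729 of the 19327 genes were higher and 1896 lower, the all-gene background for member counts given with library totals. The median of every list then moved toward MM468/PR. On TPM, where 1 was added before the log and fold changes of genes with low values shrink toward 0, some lists moved toward MM468/PR and others toward 0. Some scalings turned the sign of a median printed for a list or moved it on TPM by more than 1.5 times. Such moves are said beside the list, as are moves of a member count by more than 1.5 times with library totals. Of the genes the text names, whether or not it gives their fold change, 24 were at least 2-fold lower after TMM scaling and under 2-fold with library totals, namely ABCC3, ACLY, BAD, BOK, BUB1, CCNB1, COL1A1, COX3, CSF1R, CYP1B1, EEF1G, HK3, HMGCS1, HSPA1A, HSPA1B, KRT7, KRT19, LAMC3, MCM6, ND4L, SESN1, TUBB, UGT1A6 and XRCC4. The plot of all genes compared shows the spread, with NEAT1 and MALAT1 at the upper right and 43 of the 45 genes of ribosomal proteins below the line of no difference.

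**Figure D1:**
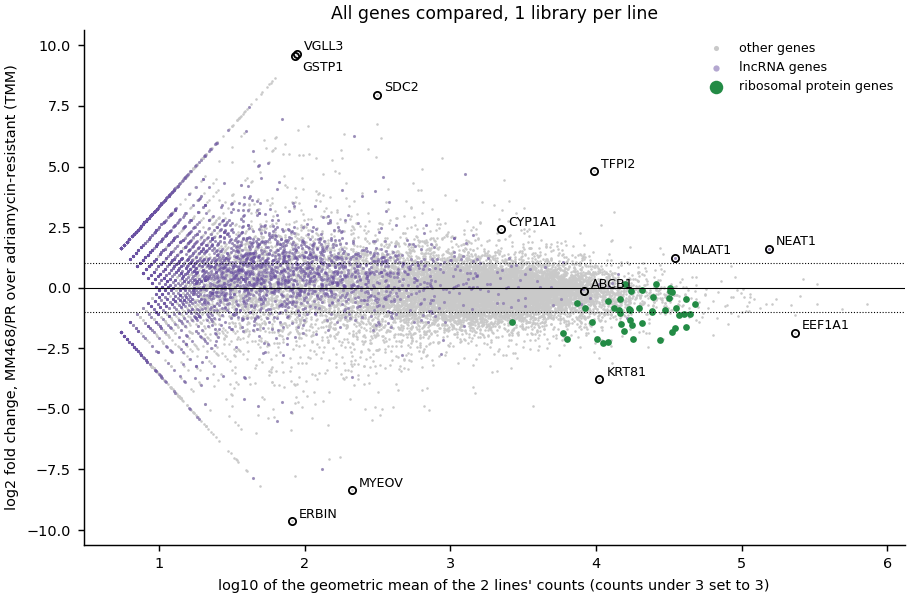
Each point is 1 of the genes compared, placed by the log10 of the geometric mean of its 2 counts in the resistant lines and by its TMM-scaled log2 fold change, with counts under 3 set to 3 and dotted lines at 2-fold. Of the 3224 lncRNA genes (purple) 1466 lie above the upper line, 809 of them one-sided, and no gene of the ribosomal protein list (green) does. The straight edges at the left are genes with few counts in 1 line.

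ABCB1, the multidrug efflux pump on chromosome 7 (87503017 to 87713295, GRCh38.p14), was nearly level between the resistant lines. Its counts were 10 counts in parental MM468, 8374 in the adriamycin-resistant line and 8171 in MM468/PR, so MM468/PR lay 1.10-fold lower (95% counting interval 1.07 to 1.14), and with library totals or TPM slightly higher. In bulk RNA, fewer cells of a kind and less RNA per cell cannot be told apart, here and below. Its neighbours RUNDC3B (435 and 565 counts) and ABCB4 (57 and 87) were also within 2-fold between the lines, while SRI, which encodes a calcium-binding protein and lies further along, was 3.07-fold lower in MM468/PR (6818 and 2396 counts). Of 39 ABC transporters compared, 6 were at least 2-fold higher and 6 lower in MM468/PR (3 of the higher one-sided, 3 lower with library totals), near the protein-coding background, with a median log2 fold change of -0.14 (0.10 with library totals and 0.18 on TPM). ABCC4, an exporter of cyclic nucleotides and nucleoside drugs, had 811, 266 and 1562 counts in the parental, adriamycin-resistant and MM468/PR libraries and was 5.45-fold higher in MM468/PR (interval 4.78 to 6.23). ABCC11, an exporter of the same subfamily, had 7, 23 and 62 counts and was 2.49-fold higher (interval 1.53 to 4.23). CFTR, the chloride channel of the ABC family, had 0, 2 and 56 counts. On the other side, ABCG2, the breast cancer resistance protein, had 0, 162 and 28 counts and was 6.21-fold lower in MM468/PR (interval 4.16 to 9.68). ABCC3, an exporter of conjugated organic anions, was 2.31-fold lower (11255 and 5241 counts), whereas ABCC1, which exports glutathione conjugates and anthracyclines, lay the other way at 1.79-fold higher, under the 2-fold limit.

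Enzymes that reduce anthracyclines act on the carbonyl group, as aldo-keto and carbonyl reductases do, or on the quinone, as NQO1, NQO2 and POR do. Of 14 enzymes of both kinds none was at least 2-fold higher in MM468/PR and 5 were lower, all of them aldo-keto reductases, with a median of -0.78, and -0.33 on TPM. The aldo-keto reductase AKR1B10 had 326 counts in parental MM468, 3913 in the adriamycin-resistant line and 129 in MM468/PR, a level 32.7-fold lower in MM468/PR (interval 27.4 to 39.3). AKR1B1, aldose reductase, had 4918, 27661 and 3981 counts in the same order and was 7.49-fold lower. Both enzymes had their highest count in the adriamycin-resistant line and their lowest in MM468/PR. AKR1C1, AKR1C2 and AKR1C3 were lower in MM468/PR by 4.11-fold, 2.67-fold and 2.51-fold, although these near-identical genes can share reads and their separate values are uncertain. The carbonyl reductases CBR1 (1.11-fold lower) and CBR3 (1.46-fold higher) were within the 2-fold limit.

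The glutathione S-transferases, which couple electrophilic compounds to glutathione, were at least 2-fold lower in MM468/PR for 9 of 17 and higher for 1 (median -1.02, -0.38 on TPM, 1 of the higher and 3 of the lower one-sided). MGST2 (1621 and 627 counts) and GSTK1 (4797 and 2153 counts) were 2.79-fold and 2.40-fold lower. GSTP1, the main transferase of many epithelial tumours, was the exception, with 1160 counts in parental MM468, 0 in the adriamycin-resistant line and 2434 in MM468/PR, which is at least 753-fold higher in MM468/PR. The GSTP1 promoter is a textbook CG-rich promoter, and DNA methylation was not measured in these samples. Its RefSeq promoter, the 250 bases before and the first 50 bases of the gene (GRCh38.p14, chr11:67583562-67583861, plus strand), is shown because a transcript present in 2 libraries had no count in the third. The capitals mark its 36 CG dinucleotides, against a median of 26 in the promoters of 11677 protein-coding genes compared (quartiles 16 and 34).
GSTP1 promoter: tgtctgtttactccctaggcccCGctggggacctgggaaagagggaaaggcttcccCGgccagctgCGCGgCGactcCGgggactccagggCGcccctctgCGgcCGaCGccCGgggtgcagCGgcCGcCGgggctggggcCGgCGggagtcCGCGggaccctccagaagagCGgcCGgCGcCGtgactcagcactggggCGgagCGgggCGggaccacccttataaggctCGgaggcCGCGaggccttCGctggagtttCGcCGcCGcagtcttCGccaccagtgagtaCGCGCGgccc

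Targets of the aryl hydrocarbon receptor (AhR), the ligand-activated factor through which cells switch on CYP1 enzymes, split by gene. Of 9 targets, 4 were at least 2-fold higher and 2 lower in MM468/PR (none lower with library totals), with a median of 0.78. CYP1A1, the cytochrome P450 most used as a sign of AhR activity, had 1432 counts in parental MM468, 925 in the adriamycin-resistant line and 5318 in MM468/PR and was 5.33-fold higher in MM468/PR (interval 4.97 to 5.73). Its neighbour on chromosome 15, CYP1A2, had 26, 14 and 367 counts and was 24.1-fold higher (interval 14.3 to 44.9). AHRR, which represses the receptor, had 0, 14 and 90 counts. ALDH3A1, an aldehyde dehydrogenase induced by AhR ligands, had 186, 272 and 962 counts, and TIPARP, an ADP-ribosyltransferase that limits AhR signalling, was 1.72-fold higher (1234 and 2286 counts). These 5 targets were all higher in MM468/PR than in the adriamycin-resistant line. CYP1B1 went the other way, with 9402 counts in parental MM468, 31248 in the adriamycin-resistant line and 15873 in MM468/PR, 2.12-fold lower in MM468/PR (interval 2.08 to 2.16). UGT1A6, a glucuronosyltransferase whose exons are shared with other UGT1A genes so that its value is uncertain, had 50, 3602 and 1691 counts and was also lower in MM468/PR. Of 7 genes of the receptor and its partners 1 was higher and 1 lower (median -0.26, and 0.16 on TPM, none lower with library totals). AHR had 8177, 10399 and 9393 counts (250, 219 and 217 CPM) and was 1.19-fold lower, and its partner ARNT was 1.11-fold lower (1856 and 1801 counts). Both were within 2-fold, with log2 fold changes of -0.01 and 0.09 by library totals. The study's blots showed less AhR protein in both resistant lines than in parental cells, and the values here are RNA only. ARNT2 was 3.19-fold higher (135 and 465 counts). The promoter of CYP1A1 (GRCh38.p14, chr15:74725479-74725778, minus strand) is shown because this gene is a readout of the receptor, on which the study's test compound acts. Capitals mark the core letters GCGTG of the AhR binding motif, searched on both strands. They occurred once, starting 57 bases before the gene's start. The same letters are in 47.8% of 13716 promoters of compared genes, in 6 of the 7 target promoters in the RefSeq set used here, and in 39.5% and 43.9% of the promoters of genes at least 2-fold higher and lower.
CYP1A1 promoter: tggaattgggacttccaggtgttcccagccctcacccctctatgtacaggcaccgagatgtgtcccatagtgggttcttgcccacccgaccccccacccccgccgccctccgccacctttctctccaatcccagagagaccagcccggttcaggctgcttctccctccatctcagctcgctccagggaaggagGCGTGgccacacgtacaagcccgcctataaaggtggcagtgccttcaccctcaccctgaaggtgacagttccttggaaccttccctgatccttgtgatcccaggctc

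NNMT, nicotinamide N-methyltransferase, and TP63, a transcription factor of basal epithelium, are genes the study names beside ABCB1, and both were higher in the adriamycin-resistant line. NNMT had 26 counts in parental MM468, 3438 in the adriamycin-resistant line and 125 in MM468/PR and was 29.6-fold lower in MM468/PR (interval 24.8 to 35.7). TP63 had 54, 2453 and 553 counts and was 4.78-fold lower (interval 4.36 to 5.25). For each of the pair the MM468/PR count lay between the parental count and the adriamycin-resistant count. The plot of levels of 26 genes sets these beside the other genes described in the text.

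**Figure D2:**
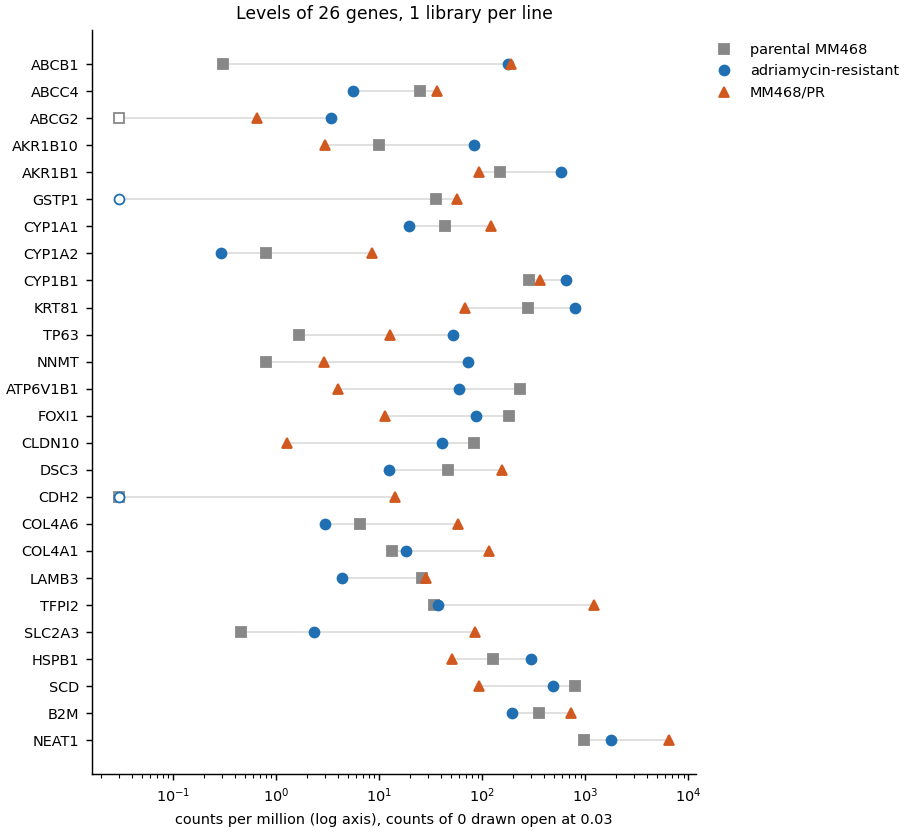
Each row is 1 gene with its level in CPM (log axis) in the parental (square), adriamycin-resistant (circle) and MM468/PR (triangle) library, and open symbols stand for 0 counts. ABCB1 has its circle and triangle side by side, far to the right of its square, whereas AKR1B10, KRT81 and HSPB1 have the circle furthest right and CYP1A1, TFPI2 and SLC2A3 the triangle.

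Among the genes of the drugs' own targets, most topoisomerase and tubulin genes were less than 2-fold apart. None of 10 genes of topoisomerases and of the repair of their adducts was 2-fold apart (median -0.09, 0.27 on TPM, and 0.16 with library totals). TOP2A, the topoisomerase trapped by adriamycin, had 10803 counts in parental MM468, 24041 in the adriamycin-resistant line and 20919 in MM468/PR, 1.24-fold lower in MM468/PR (interval 1.22 to 1.26), and TOP2B was 1.54-fold higher (5815 and 9651 counts). TDP1, which clears topoisomerase adducts, was 1.92-fold lower. Tubulins had 1 gene higher and 3 lower of 17 (1 of the higher one-sided), the latter a share near the 14.6% of all protein-coding genes, with a median of -0.31 that was -0.07 with library totals and 0.01 on TPM. The main beta-tubulin gene TUBB was 2.02-fold lower in MM468/PR (interval 2.00 to 2.03), 1 of the 8 genes furthest apart in CPM toward the adriamycin-resistant line. It had 139857 counts in parental MM468, 137831 in the adriamycin-resistant line and 73705 in MM468/PR. Scaled to CPM these were 4276, 2898 and 1704, so the adriamycin-resistant line also lay below the parental level. TUBB3, the isotype often studied in taxane response, was 1.06-fold lower (1828 and 1858 counts), and TUBA4A was 5.77-fold lower (504 and 94). Regulators of microtubules were 3 higher and 5 lower of 27, near the protein-coding background (median -0.34, and 0.04 on TPM, 2 of the higher one-sided, 2 lower with library totals). MAPRE2, an end-binding protein of growing microtubules, had 0, 0 and 534 counts, which is at least 165-fold higher in MM468/PR. MAPT, the gene of tau, was the other extreme at 4.37-fold lower (394 and 97 counts), with 38 counts in the parental library. STMN1, which takes microtubules apart, was 1.97-fold higher (26076, 11509 and 24483 counts).

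Proliferation, DNA repair and p53 target genes had few members past 2-fold. Of 30 proliferation genes 5 were lower by 2-fold in MM468/PR, near the protein-coding background, and none was higher (median -0.19, 0.22 on TPM, and 0.06 with library totals, 2 lower with library totals). The lower ones were the replication licensing genes MCM2 (3.62-fold lower) and MCM6 (2.31-fold), the mitotic kinase CDK1 (2.42-fold) with its cyclin CCNB1 (2.31-fold), and the checkpoint kinase BUB1 (2.03-fold). FOXM1, the mitotic transcription factor, lay the other way (1.52-fold higher). Only XRCC4 of 25 genes of homologous recombination and end joining was past 2-fold (2.33-fold lower). With library totals XRCC4 was under 2-fold, and 1 other member of that list was at least 2-fold higher. Of 23 p53 target genes, CDKN1A, the cyclin-dependent kinase inhibitor p21, was 4.19-fold higher (956 counts in parental MM468, 411 in the adriamycin-resistant line and 1857 in MM468/PR) and SESN1, a stress-induced inhibitor of mTORC1 signalling, 2.14-fold lower, and the other 21 were within 2-fold. By library totals 2 of the 23 p53 target genes were higher and none was lower. The medians of these 2 lists were -0.03 and -0.10, and both were above 0 with library totals and on TPM. In the BCL2 family, 3 of 19 genes were lower in MM468/PR, near the protein-coding background (median -0.38, and 0.06 on TPM, 4 higher and 1 lower with library totals). The lower ones were the survival gene BCL2 (2.62-fold) and the pro-apoptotic BAD (2.29-fold) and BOK (2.03-fold). BMF, a pro-apoptotic member, was 2.69-fold higher, and BCL2L1, which encodes BCL-XL, was 1.89-fold higher (3924 and 7995 counts).

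Keratins, the filaments that mark epithelial cell types, were lower in MM468/PR for 11 of 23 genes and higher for 1 (3 of the lower one-sided, 2 higher with library totals), with a median of -0.76, and -0.23 on TPM. The hair keratin gene KRT81 had 9150 counts in parental MM468, 37763 in the adriamycin-resistant line and 2947 in MM468/PR, 13.8-fold lower in MM468/PR (interval 13.3 to 14.3), though it shares near-identical sequence with KRT83 and KRT86. The simple keratins KRT7 (58766 and 28950 counts) and KRT19 (78210 and 36405 counts) were 2.19-fold and 2.32-fold lower, while KRT5, KRT8, KRT14 and KRT18 were within 2-fold and KRT17 was 1.47-fold higher. Junction genes followed the same direction with 11 of 29 lower, 1 higher (1 of the lower one-sided, 2 higher and 7 lower with library totals) and a median of -0.51, and -0.11 on TPM. The claudin CLDN10 had 2710 counts in parental MM468, 1955 in the adriamycin-resistant line and 55 in MM468/PR (38.2-fold lower), CLDN3 had 932, 2298 and 362 counts (6.84-fold lower), and plakoglobin, JUP, had 9354, 18669 and 6476 counts (3.11-fold lower). DSC3, a desmosomal cadherin of stratified epithelium, was the 1 higher member at 1511, 594 and 6766 counts, 10.6-fold. CDH1 and EPCAM, by contrast, were 1.44-fold and 1.26-fold higher in MM468/PR, under the limit. CD24, a surface glycoprotein of luminal breast epithelium, had 72887 counts in parental MM468, 120837 in the adriamycin-resistant line and 33394 in MM468/PR and was 3.90-fold lower (interval 3.85 to 3.95).

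Of 16 mesenchymal genes 6 were higher in MM468/PR and 4 lower (median -0.46, -0.04 on TPM, 3 of the higher and 1 of the lower one-sided). The one-sided higher genes were CDH2, TWIST1 and ZEB1. CDH2, N-cadherin, had 0 counts in parental MM468, 0 in the adriamycin-resistant line and 618 in MM468/PR, at least 191-fold higher. TWIST1, a transcription factor of mesenchymal cells, had 6, 4 and 250 counts and was 56.3-fold higher (interval 22.4 to 214), and ZEB1 had 16, 7 and 53 counts. FN1, fibronectin, was 7.87-fold lower in MM468/PR (1744, 2016 and 276 counts), and VIM was low in both (172 and 106 counts). The higher and lower members thus included textbook mesenchymal genes on both sides. Among breast lineage factors, 5 of 23 were higher and 7 lower in MM468/PR (median -0.18, 0.20 on TPM, and 0.07 with library totals, 2 of the higher one-sided). RUNX1, a lineage factor of mammary epithelium, had 2339, 3035 and 12307 counts (3.76-fold higher), and BCL11A was 4.63-fold higher. The luminal progenitor factor ELF5 (88, 178 and 20 counts, 9.54-fold lower), SPDEF (2811, 1402 and 190 counts, 7.95-fold lower) and XBP1 (4829, 2587 and 821 counts, 3.40-fold lower) were lower. Genes of the proton-pumping intercalated cell of the kidney, also found in other epithelia, were lower for 4 of 10, while the 3 higher ones were all one-sided (median -0.63, -0.09 on TPM), and the list summed to 567 CPM in parental cells, 219.8 CPM in the adriamycin-resistant line and 44.5 CPM in MM468/PR. FOXI1, the transcription factor of these cells, had 5887 counts in parental MM468, 4131 in the adriamycin-resistant line and 487 in MM468/PR, 9.14-fold lower in MM468/PR. The cell-type-restricted V-ATPase subunits ATP6V1B1 (7591, 2803 and 171 counts), ATP6V0A4 (4417, 1081 and 146) and ATP6V0D2 (2738, 489 and 55) were 17.7-fold, 7.97-fold and 9.56-fold lower, and TFCP2L1, a partner factor, was 5.01-fold lower. For these 5 genes the count was highest in the parental library, lower in the adriamycin-resistant line and lowest in MM468/PR, also as CPM. The other 20 V-ATPase subunits, without these 3 and ATP6V1C2, had a median of -0.31, with 1 higher and 1 lower.

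Collagens were higher for 12 of 28 and lower for 5 (median 0.72, 0.28 on TPM) in MM468/PR, and integrins and laminins were higher for 13 of 34 and lower for 3 (median 0.53, 3 of the higher and 1 of the lower one-sided). Of the higher collagens 5 were one-sided and of the lower 2, and the former included COL27A1 (4, 9 and 885 counts) and COL8A1 (112, 6 and 454), the furthest up of the list. Other adhesion lists lay the other way, among them the epithelial junction genes given above. Clustered protocadherins were higher for 5 of 50 and lower for 13 (median -0.53, -0.04 on TPM, 2 of the higher and 3 of the lower one-sided). They lie on chromosome 5, where 30.7% of all protein-coding genes were lower (median -0.67), so the list did not stand apart from its chromosome. The collagen IV genes COL4A1 (437, 867 and 5045 counts) and COL4A2 (943, 2189 and 7434), which share a promoter region on chromosome 13, were 5.40-fold and 3.15-fold higher, and COL4A5 (4620, 2469 and 8413) and COL4A6 (215, 142 and 2510), paired in the same way on the X chromosome, 3.16-fold and 16.4-fold. Of the 6 collagen IV genes, COL4A3 was level and COL4A4 was 1.87-fold lower. The laminin chains LAMA3 (321, 116 and 628 counts, 5.02-fold) and LAMB3 (853, 207 and 1223, 5.48-fold) of the epithelial basement membrane were higher, whereas LAMA5 (11706, 20047 and 14532) was 1.49-fold lower, LAMA4 (3342, 10388 and 11454) near level and LAMC3 (4, 35 and 18) 2.09-fold lower. For LAMA3 and LAMB3 the adriamycin-resistant line had the lowest level of the 3 libraries, as CPM too. ITGB6, an epithelial integrin, was 3.15-fold higher (5221, 1909 and 6481 counts), and ITGA1, a collagen receptor, had 0, 24 and 996 counts (38.3-fold higher, interval 25.7 to 60.4). COL12A1, one of the most abundant collagens of both lines, was level at 32669 and 35724 counts, far above its parental 277. COL1A1 lay the other way at 2.14-fold lower.

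Secreted proteases and their inhibitors were higher in MM468/PR for 11 of 24 and lower for 7 (median 0.74, 0.38 on TPM, 4 of the higher and 2 of the lower one-sided). The aggrecanases ADAMTS1 (3128, 987 and 10454 counts) and ADAMTS5 (51, 38 and 2971), neighbours on chromosome 21, were 9.83-fold and 72.3-fold higher. PLAUR, the urokinase receptor, was 5.14-fold higher and MMP14, a membrane-bound collagenase, 3.63-fold higher. TIMP1 (671, 1455 and 257 counts) was 6.10-fold lower and TIMP2 (4345, 7898 and 14202 counts) 1.67-fold higher, so that inhibitors of metalloproteases lay on both sides. TFPI2, a secreted inhibitor of serine proteases, is outside that list and had 1110 counts in parental MM468, 1757 in the adriamycin-resistant line and 53098 in MM468/PR, 28.0-fold higher in MM468/PR (interval 26.7 to 29.4). It was 1 of the 8 genes with the largest difference in CPM toward MM468/PR, with NEAT1, MALAT1 and B2M, which are described below, CRIM1, a membrane protein that binds bone morphogenetic proteins (10643, 14963 and 50735 counts, 3.15-fold higher), ALPP, the placental alkaline phosphatase (4782, 4336 and 40216, 8.60-fold higher, with sequence shared with ALPG), MET, the hepatocyte growth factor receptor (11201, 17075 and 48804, 2.65-fold higher), and CAV1, the caveolar coat protein (5417, 4218 and 27678, 6.09-fold higher). MET and CAV1 are near each other on chromosome 7.

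Growth factor and Wnt or Hippo genes were mixed. In the EGFR family and its ligands 3 of 15 were higher and 2 lower (median -0.16, 0.18 on TPM, and 0.09 with library totals, 2 of the higher and 1 of the lower one-sided), and EGFR itself had 166693 counts in parental MM468, 270028 in the adriamycin-resistant line and 230621 in MM468/PR, 1.26-fold lower. ERBB4 (0, 53 and 523 counts) was 9.14-fold higher, and the ligand EREG (15, 5 and 122 counts) 22.1-fold higher. ERBIN, which binds ERBB2, had 1871 counts in parental MM468, 2224 in the adriamycin-resistant line and 0 in MM468/PR, at least 799-fold lower in MM468/PR. Of the 7 GDNF-family genes 4 were higher, among them the co-receptor GFRA1 (0, 760 and 2049 counts, 2.50-fold higher), and 2 were lower (median 1.22, 0.24 on TPM, 1 of the higher and 1 of the lower one-sided, 1 lower with library totals). Of 27 Wnt and Hippo genes 6 were higher and 3 lower (median 0.19, 0.32 on TPM, 2 of the higher one-sided). ANKRD1, a target of YAP1 and TEAD factors, had 609, 1839 and 62 counts and was 31.9-fold lower, while the YAP1 target CCN1 was 2.2-fold higher and CCN2 nearly level (1.14-fold higher). SFRP1, a Wnt antagonist, was 2.51-fold higher, DKK1, another, 3.01-fold lower, and WNT6 5.80-fold lower (5182, 4989 and 927 counts).

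Of 25 heat shock and unfolded protein response genes 10 were lower in MM468/PR and none was higher by 2-fold (1 of the lower one-sided, 6 lower with library totals), with a median of -0.74, and -0.33 on TPM. The small heat shock protein HSPB1 had 4155 counts in parental MM468, 14024 in the adriamycin-resistant line and 2179 in MM468/PR, 6.94-fold lower in MM468/PR (interval 6.63 to 7.26). HSPA1A and HSPA1B, whose near-identical sequences can share reads, had 13415 and 12233 counts in the adriamycin-resistant line and 6944 and 6455 in MM468/PR, and BAG3, their co-chaperone, was 3.0-fold lower. HSPH1 lay the other way, 1.39-fold higher. Promoters of HSPB1 (chr7:76302423-76302722, plus strand) and HSPA1A (chr6:31815293-31815592, plus strand, both GRCh38.p14 from RefSeq) are shown because both genes are textbook targets of heat shock factor and both were lower in MM468/PR. Capitals mark GAANNTTC, with N for any base, a pair of inverted heat shock half-sites that is found on both strands at once. It was present in 5.03% of all 13716 promoters and in 6 of the 25 of the list (HSPB1, HSPA1A, HSPA1B, HSPA6, HSPA8 and ASNS), and in 6.02% and 5.65% of the promoters of all genes at least 2-fold higher and lower.
HSPB1 promoter: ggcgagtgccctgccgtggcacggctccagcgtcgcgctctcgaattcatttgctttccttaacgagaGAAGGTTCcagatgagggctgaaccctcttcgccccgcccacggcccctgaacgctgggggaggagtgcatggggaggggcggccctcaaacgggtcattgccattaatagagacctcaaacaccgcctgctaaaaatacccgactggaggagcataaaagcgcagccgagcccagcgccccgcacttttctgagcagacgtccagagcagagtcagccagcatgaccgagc
HSPA1A promoter: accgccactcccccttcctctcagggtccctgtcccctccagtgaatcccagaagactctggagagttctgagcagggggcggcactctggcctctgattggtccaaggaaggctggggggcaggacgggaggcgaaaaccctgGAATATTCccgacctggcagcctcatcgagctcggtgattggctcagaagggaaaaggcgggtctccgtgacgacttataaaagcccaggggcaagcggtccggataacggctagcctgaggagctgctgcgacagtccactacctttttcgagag

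Cholesterol and fatty acid synthesis was lower in MM468/PR for 7 of 28 genes and higher for none (3 lower with library totals), with 27 of the 28 fold changes below 0 and a median of -0.65, and -0.23 on TPM. SCD, the stearoyl-CoA desaturase, had 25927 counts in parental MM468, 23268 in the adriamycin-resistant line and 3996 in MM468/PR, 6.28-fold lower (interval 6.07 to 6.49), HMGCS1 was 2.28-fold lower and ACLY, which makes cytosolic acetyl-CoA, 2.14-fold lower, both under 2-fold with library totals. Summed over the list the level was 7029.8 CPM in parental cells, 4571 CPM in the adriamycin-resistant line and 3143 CPM in MM468/PR. Of 27 glucose genes 3 were higher and 5 lower, near the protein-coding background (median -0.40, and 0.02 on TPM, 1 of the lower one-sided). The higher ones were the glucose transporters SLC2A3 (15, 112 and 3657 counts, 30.3-fold higher, interval 25.1 to 36.9) and SLC2A1 (6068, 2854 and 10115, 3.29-fold higher) and the lactate carrier SLC16A1 (1829, 601 and 4251, 6.56-fold higher). The lower ones were the transporter SLC2A4 (111, 69 and 22 counts, 3.37-fold lower) and the glycolytic enzymes HK1 (7299, 11516 and 3098 counts, 4.01-fold lower), HK3 (2.14-fold lower), PGAM1 (3.27-fold lower) and LDHA (40417, 61921 and 20995, 3.18-fold lower). In the antioxidant list 4 of 23 were lower, near the protein-coding background, and 1 higher (median -0.51, -0.23 on TPM, 2 higher and 2 lower with library totals). HMOX1, heme oxygenase, had 490, 3168 and 399 counts (8.56-fold lower). TXN, thioredoxin, was the higher one with 3603, 5271 and 12921 counts (2.27-fold higher). Aldehyde dehydrogenases were lower for 6 of 19, among them ALDH2 (817, 431 and 17 counts, 27.1-fold lower) and ALDH1A1 (19, 232 and 11 counts, 22.5-fold lower), and higher for 3 (median -0.81, -0.33 on TPM, 1 of the higher one-sided). In the urea cycle list 3 of 13 genes were lower and none higher (median -0.68, -0.27 on TPM), with CPS1, its first enzyme, at 8, 1333 and 263 counts (5.46-fold lower). Of 17 retinoic acid genes 5 were lower and none higher (median -0.41, and 0.00 on TPM, 2 of the lower one-sided, 1 higher with library totals). The carrier CRABP2 was 3.23-fold lower. Metallothioneins, the metal-binding proteins, were higher in MM468/PR for 3 of 4 compared (median 1.31, 1 of the higher one-sided). MT2A had 9999 counts in parental MM468, 1755 in the adriamycin-resistant line and 5438 in MM468/PR (2.87-fold higher), and MT1E had 964, 0 and 707 counts, at least 219-fold higher, so the counts of both were lowest in the adriamycin-resistant line, with the caution that these small genes are closely alike.

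Cytokine and chemokine genes were lower for 12 of 24 and higher for 3 in MM468/PR (median -1.03, -0.51 on TPM, 2 of the higher and 3 of the lower one-sided). IL18 had 700 counts in parental MM468, 3262 in the adriamycin-resistant line and 688 in MM468/PR (5.11-fold lower), CCL28 had 1233, 4921 and 1443 counts (3.68-fold lower) and the decoy receptor IL1R2 14, 589 and 53 counts (12-fold lower). CSF3R, the receptor of granulocyte colony-stimulating factor, had 7, 1418 and 48 counts and was 31.8-fold lower (interval 23.9 to 43.4). IL6 lay the other way at 36, 302 and 943 counts (2.90-fold higher). Interferon-stimulated genes were lower for 9 of 29 and higher for 5 (median -0.49, -0.05 on TPM, 2 of the lower one-sided). BST2, which tethers virions, was 10.2-fold lower (368, 1358 and 144 counts) and IFIT3 4.24-fold lower, whereas ISG15 was 3.91-fold higher (409, 105 and 443 counts) and IFI44L 6.15-fold higher. In MHC class I presentation 2 of 18 were higher and 3 lower, near the protein-coding background (median -0.16, 0.33 on TPM, and 0.09 with library totals, 1 of the higher one-sided, none lower with library totals). B2M, the light chain of class I molecules, had 11684 counts in parental MM468, 9310 in the adriamycin-resistant line and 31783 in MM468/PR, 3.17-fold higher (interval 3.09 to 3.24). HLA-B was 1.99-fold higher, under the limit and open to shared reads among HLA genes. HLA-G, HLA-DRA, HLA-DRB1 and HLA-DQB1 had 0 counts in the adriamycin-resistant line and 110, 27, 47 and 149 in MM468/PR, the highest of them at 3.45 CPM. Of the 10 class II genes compared, 6 were one-sided through MM468/PR, so no lean of the list is read from them. All 13 class II genes of the list summed to 8.91 CPM in the adriamycin-resistant line and 15.4 CPM in MM468/PR. CIITA, the class II regulator, had 21, 15 and 201 counts (12.3-fold higher), while HLA-DMA was 4.52-fold lower.

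Large differences also fell on genes outside the lists. The 12 protein-coding genes furthest up among the 8591 with 1000 or more counts in 1 line and 10 or more in the other included SDC2, ZNF618, TSPEAR, ADAMTS5, CCN3, DIPK2A, TCEAL9, CAMK2B, ZNF781, SLC2A3 and TFPI2. SDC2, a heparan sulfate proteoglycan, had 0, 19 and 5101 counts (248-fold higher, interval 159 to 414). CCN3, a matricellular protein, had 111, 36 and 2043 counts (52.5-fold), and CAMK2B, a calcium-dependent kinase subunit, 28, 27 and 1209 counts (41.4-fold). SDC2, ZNF618 and TCEAL9 had no parental count, whereas DIPK2A, with 464, 24 and 1327 counts, stood furthest from the parental level in the adriamycin-resistant line. The remaining genes were higher by 102-fold for ZNF618, 80.7-fold for TSPEAR and 41.7-fold for TCEAL9. Furthest down were MYEOV, SREK1, SLC34A2, CLMP, PYGL, CLDN10, AKR1B10, ANKRD1, CSF3R, MAGED1, AOX1 and NNMT. MYEOV, a gene often amplified with CCND1 in tumours, had 1641 counts in parental MM468, 3708 in the adriamycin-resistant line and 12 in MM468/PR (329.5-fold lower, interval 190.4 to 645). SLC34A2, a phosphate transporter, had 1907, 1905 and 16 counts (127-fold), and PYGL, the liver glycogen phosphorylase, 87, 1862 and 45 counts (44.5-fold). CLMP, a junctional adhesion protein, had 14, 1009 and 21 counts (51.5-fold), MAGED1 28, 1622 and 57 (30.6-fold), and AOX1, aldehyde oxidase, 34, 2150 and 76 (30.4-fold). MYEOV, SLC34A2, SREK1 and CLDN10 each had over 1000 parental counts and were low in MM468/PR alone, whereas PYGL, CLMP, MAGED1, AOX1 and NNMT had fewer than 100 parental counts and were high in the adriamycin-resistant line alone.

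Some protein-coding genes had no count at all in 1 line, 341 of those compared in the adriamycin-resistant line and 130 in MM468/PR. With 100 or more counts in the other line these were 42 and 15. The 8 with the most counts in MM468/PR and 0 in the adriamycin-resistant line were VGLL3, GSTP1, ZNF711, EPHB1, CHRDL1, LRP2, ACSS3 and MT1E. VGLL3, a cofactor of TEAD transcription factors, had 196, 0 and 2616 counts (at least 809-fold higher), and EPHB1, an ephrin receptor, 0, 0 and 1133 counts (at least 350.4-fold higher). LRP2, the endocytic receptor megalin, had 0, 0 and 865 counts. Of the 8, VGLL3, GSTP1 and MT1E were well counted in the parental library (196, 1160 and 964 counts), so these were absent from the adriamycin-resistant line alone. EPHB1, CHRDL1, LRP2 and ACSS3 had no parental count either and were counted in MM468/PR alone. In the other direction stood ERBIN, HBE1, LY75-CD302, DEFB1, OR51B5, ELOVL3, OLFM4 and ADAMTS12. HBE1, the embryonic beta-like globin, had 0, 815 and 0 counts (at least 293-fold lower), and OR51B5, an olfactory receptor gene of the same cluster on chromosome 11, 0, 389 and 0 counts, and the annotated transcripts of this cluster overlap. DEFB1, an epithelial defensin, had 50, 403 and 0 counts, and OLFM4, a secreted glycoprotein, 613, 224 and 0. LY75-CD302 is a readthrough of 2 neighbouring genes, so its 516 counts depend on how shared reads were divided. ERBIN (chromosome 5, 65926575 to 66082546) lies next to SREK1 (66144300 to 66183615), with 1653 counts in the adriamycin-resistant line and 13 in MM468/PR, while NLN on the other side of ERBIN had 3411 and 2412 counts.

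Long non-coding RNA genes and genes of the translation machinery lay on opposite sides. Of 3224 lncRNA genes compared, 45.5% were at least 2-fold higher in MM468/PR and 10.5% lower, but 809 of the 1466 higher and 187 of the 340 lower genes were one-sided. The median log2 fold change was 0.87 (1.12 with library totals), against -0.07 (0.18 with library totals) for 14400 protein-coding genes. Among the 943 lncRNA genes with 100 or more counts in 1 line, 393 were higher and 72 lower (median 0.77, 27 of the higher and 6 of the lower one-sided). With a mean of 100 or more counts over the 3 libraries, a filter chosen after seeing the data, 225 of 681 lncRNA genes were higher and 47 lower (median 0.57), against 938 higher and 1589 lower of 11889 protein-coding genes (median -0.12). NEAT1, the scaffold RNA of nuclear paraspeckles, had 31689 counts in parental MM468, 84629 in the adriamycin-resistant line and 279442 in MM468/PR, 3.06-fold higher (interval 3.04 to 3.09), and MALAT1, an RNA of nuclear speckles, had 10350, 21732 and 55499 counts, 2.37-fold higher (interval 2.33 to 2.41). As a share of all counts lncRNA genes made up 1.00% in the parental, 1.14% in the adriamycin-resistant and 2.16% in the MM468/PR library. Of 45 ribosomal protein genes 22 were at least 2-fold lower in MM468/PR and none higher (median -0.97, -0.59 on TPM, and -0.73 with library totals), from RPS23 (10276, 23872 and 5275 counts, 4.88-fold lower) to RPL35 (14554 and 17313 counts, 1.10-fold higher). The list summed to 1.98%, 2.88% and 1.75% of counts in the same order, so the adriamycin-resistant line had the highest share. EEF1A1, the elongation factor that brings aminoacyl-tRNA to the ribosome, had 218978 counts in parental MM468, 422753 in the adriamycin-resistant line and 126224 in MM468/PR, 3.61-fold lower (interval 3.59 to 3.63), with EEF2 (2.40-fold), EEF1G (2.08-fold) and the 40S subunit protein RACK1 (2.85-fold) also lower. Pseudogenes of these genes can share their reads. The mitochondrial COX3 (2.19-fold lower) and ND4L (2.27-fold lower, overlapping ND4) completed, with CD24 and TUBB, the 8 genes with the largest differences in CPM toward the adriamycin-resistant line, and all genes of the mitochondrial genome made up 7.60%, 7.45% and 6.10% of counts. Protein-coding genes with a short span in the genome lay lower than those with a long one, with a median of -0.30 in the 2871 genes with the shortest spans (up to 9.52 kb) and 0.11 in the 2871 with the longest (93.1 kb or more). No measure of RNA integrity or of nuclear RNA content is among the labels, and the part of library preparation in these values was not tested.

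Differences were also arranged along chromosomes. Chromosome 10 had 718 genes compared, of which 44.7% were at least 2-fold lower in MM468/PR and 9.47% higher, with a median of -0.89, against 14.1% lower, 18.9% higher and 0.03 over all 18904 genes with a position. Of its 321 lower genes 45 were one-sided, and of its 68 higher genes 38. Within it the short arm and the long arm differed. From 42 Mb to the end, 295 of 542 genes were at least 2-fold lower and 479 had a fold change below 0 (median -1.06, 35 of the lower one-sided). In the 176 genes before that point 26 were lower and 37 higher (median 0.06, 17 of the higher and 10 of the lower one-sided). Against parental cells the long-arm genes had a median of -0.66 in MM468/PR and 0.14 in the adriamycin-resistant line on the log2 CPM scale, where the median of all genes was 0.29 and 0.02. MM468/PR was thus the line that stood away from the parental level on this arm. Several genes described above lie there, among them SCD, HK1, PGAM1, CDK1, DKK1, ANKRD1, IFIT3 and BAG3, all lower in MM468/PR, and GFRA1, which was higher. Chromosome 5 leaned the same way between the lines, with 28.6% of 866 genes lower (58 of 248 one-sided) and a median of -0.57. Against parental cells its median was -0.04 in MM468/PR and 0.27 in the adriamycin-resistant line, so both lines differed there from their medians over all genes. Chromosomes 18 (31.3% higher, median 0.52), 21 (30.8%, 0.39), 9 (27.4%, 0.44) and 3 (26.4%, 0.44) leaned the other way, where 33 of 84, 31 of 78, 80 of 223 and 116 of 281 higher genes were one-sided. Against parental cells the medians in MM468/PR and the adriamycin-resistant line were 0.50 and -0.22 on chromosome 18 and 0.35 and -0.23 on chromosome 21. They were 0.74 and 0.08 on chromosome 9 and 0.71 and 0.07 on chromosome 3.

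Runs of 15 neighbouring genes showed where such leans began and ended. On chromosome 9, a block from 34 to 39 Mb had 63 of 81 genes at least 2-fold lower and 3 higher (median -1.78, 2 of the higher and 8 of the lower one-sided). The other 732 genes of the chromosome had 44 lower and 220 higher (median 0.52, 78 of the higher and 12 of the lower one-sided). The block holds VCP, a segregase of ubiquitylated proteins (36218, 57192 and 14297 counts, 4.31-fold lower), and TLN1, the integrin-linked protein talin (30579, 42391 and 12513 counts, 3.65-fold lower). Against parental cells the block had a median of -1.34 in MM468/PR and 0.15 in the adriamycin-resistant line. On chromosome 7, genes from LOC105375470 (118151349) to the end had a median of -0.74 (85 of 237 at least 2-fold lower, 21 of them one-sided) and the rest 0.30. The aldo-keto reductases AKR1B1 (134442350 to 134459239) and AKR1B10 (134527567 to 134541412) are neighbours in this stretch, which also holds ATP6V0A4 and GSTK1. The boundaries of these 3 blocks were placed after the values were seen, and genomic DNA was not sequenced here. All 3 medians kept their sign with library totals and on TPM. They were smaller on TPM, at -1.19 for chromosome 9, -0.52 for chromosome 10 and -0.23 for chromosome 7. Outside these blocks, the run of chromosome 17 from KRT222 to KRT32, mainly keratin and keratin-associated genes, had 12 of 15 genes lower, of which 6 were one-sided. Its median was -3.30 as fitted and -2.22 with genes at 0 set to their bound, so its place among the runs rests on genes with few counts. In chromosome 10 the lowest run, from ACTBP14 to PPA1 with HK1 in it, had 15 of 15 genes lower (median -2.08, 4 of them one-sided).

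On chromosome 19, 3 runs that were mostly higher were clusters of zinc finger genes. The run from ZNF570 to WDR87 had 15 of 15 genes at least 2-fold higher (median 2.02, 3 of them one-sided) and that from ZNF714 to PCGF7P 14 of 15 (median 2.07 with genes at 0 set to their bound, 5 of them one-sided). In the run from ZNF729 to LINC01858 13 of 15 were higher, but 8 of these were one-sided, and its bounded median was 1.87. ZNF781 had 155 counts in parental MM468, 132 in the adriamycin-resistant line and 5848 in MM468/PR, 41.1-fold higher (interval 34.6 to 49.2), ZNF431 had 954, 1254 and 9689 counts (7.17-fold higher) and ZFP30 997, 1434 and 8257 counts (5.34-fold higher). The 237 protein-coding zinc finger genes of chromosome 19 named ZNF or ZFP were a set formed after the runs were seen. Of these 62 were higher and 2 lower (median 0.56, 2 of the higher one-sided). The other 869 protein-coding genes of the chromosome had 105 higher and 174 lower (median -0.30, 44 of the higher and 16 of the lower one-sided). The 229 zinc finger genes of other chromosomes had 32 higher and 14 lower (median 0.25, 5 of the higher and 1 of the lower one-sided). Reads of these repetitive genes can map to more than 1 of them. A high run of chromosome 7 (11 of 15 higher, 6 of them one-sided, bounded median 2.63) ended with TFPI2 (93885396 to 93890753) and GNG11 (93921735 to 93928610), a G protein subunit with 341, 480 and 11223 counts (21.7-fold higher). It also held CDK6, a cell cycle kinase with 1348, 1093 and 8257 counts (7.01-fold higher). From 92 to 94 Mb 12 of 21 genes were higher, 7 of them one-sided, and none lower. The run of chromosome 13 with COL4A1 and COL4A2 had 10 of 15 genes higher (6 one-sided, bounded median 1.77) and that of chromosome 21 with ADAMTS1 and ADAMTS5 9 of 15 (5 one-sided, bounded median 2.24).

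Set against the parental library, MM468/PR was more often the line further from it. Of the 6455 genes at least 2-fold apart, the adriamycin-resistant line was nearer to the parental level in 4386 (67.9%) and MM468/PR in 2069, on the log2 scale of CPM with 0.1 added. For genes higher in MM468/PR, the adriamycin-resistant line was nearer in 2728 of 3757, and for genes lower in MM468/PR in 1658 of 2698. Over all genes compared the median level in CPM lay 0.29 above the parental one on the log2 scale in MM468/PR and 0.02 above it in the adriamycin-resistant line. With each line centred on its own median, an alternative chosen after seeing the data, the adriamycin-resistant line was nearer in 4370 genes (67.7%), namely in 2538 of those higher and 1832 of those lower in MM468/PR. Without the one-sided genes, also chosen after seeing the data, it was nearer in 2838 of 4134 (68.7%), and in 2873 (69.5%) with the centring as well. In 3316 genes (51.4%) the parental level lay between the 2 lines. TFPI2, KRT81 and NNMT stand for different cases. TFPI2 was near its parental level in the adriamycin-resistant line and high in MM468/PR, NNMT was nearer to it in MM468/PR and high in the adriamycin-resistant line, and KRT81 was above it in the adriamycin-resistant line and below it in MM468/PR. The parental library was 1 sample like the others, and its own distance from another parental culture was not measured.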

How the data were processed

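RNA of 3 lines (paclitaxel-resistant MM468/PR, the adriamycin-resistant line and their parent) was sequenced from stranded libraries, 1 per line. The authors deposited 1 table of read counts per gene, with FPKM and TPM values computed by the authors from the same reads. Per the submitters' processing notes, Trimmomatic 0.39, HISAT2 2.2.1 and StringTie 2.2.1 were used with GRCh38. Whether counting used strand is not given in the sources used here.

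The deposited counts were scaled with TMM (edgeR 4.0.16 in R 4.3.3, factors from the 2 resistant libraries), and the log2 fold changes carry a prior count of 0.125. Genes with 10 or more counts in 1 of the 2 libraries were compared. With no replicates no test was possible, and a gene was counted as apart at 2-fold or more. For the ratio of a gene's 2 counts an exact 95% interval was taken from the binomial distribution. A count of 0 was bounded against 3 counts in that library. The fold-change step was tested on simulated data. DESeq2 1.42.0 size factors, library totals, deposited TPM and FPKM values and other minimums served as alternatives. Python 3.11.15, numpy 2.4.6, scipy 1.17.1, pandas 2.3.3 and matplotlib 3.10.9 were used for the rest.

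The comparison, the gene lists and the rule for named genes were chosen with earlier results of these data known. The rule took the 12 protein-coding genes furthest up and down with 1000 or more counts in 1 line and 10 or more in the other, the 8 with most counts among those at 0 in 1 line, the 8 with the largest difference in CPM each way, genes the study names for AhR or resistance, and list members. Genome blocks, the zinc finger set and single examples were chosen after their values were seen. A few genes that the rule names are not reported here. Of 46427 gene IDs 44698 were matched to RefSeq (GRCh38.p14) for type, position and promoter.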

Additional observations from a re-analysis of the deposited data

How the results depend on the processing

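No paired analysis was possible because each line has 1 library, and no replicate could be left out. The counts of genes at least 2-fold higher and lower in MM468/PR, 3757 and 2698, were 3721 and 2728 with DESeq2 size factors and 4729 and 1896 with library totals. Without a count minimum they were 6520 and 4354, with a minimum of 100 counts 1737 and 1601, and at a 4-fold threshold 1752 and 838. With the whole counting interval beyond 2-fold they were 2268 and 1826, and among protein-coding genes 1949 and 2107. On the authors' TPM values 2850 genes were higher and 871 lower with a pseudocount of 1, and 5192 and 1446 with 0.1. On FPKM values the numbers were 1334 and 781 with a pseudocount of 1, and 3796 and 1517 with 0.1. No gene 2-fold apart and named in the text changed direction under any setting run. Of these genes 24, all lower, were under 2-fold with library totals, and 5 others (ABCC1, BCL2L1, HLA-B, STMN1 and TIPARP) passed it. The small differences of ABCB1, AHR, ARNT, ASNS, CBR1, EGFR, GATA3, KRT8, KRT14, NQO1, TCEAL4, TOP2A and TUBB3 changed sign with library totals or on TPM. Medians near 0 did change sign, as given beside the lists, and so did those of 9 chromosomes between -0.31 and -0.01, with library totals or on TPM. The median of the 7 basal markers went from -0.23 to 0.02 with library totals and to 0.17 on TPM. For the 9 genes the study names it went from -0.15 to 0.09 with library totals and to 0.21 on TPM. With a minimum of 100 counts the median of the homologous recombination and end joining list went from -0.03 to 0.05 and that of the fibroblast markers from 0.34 to -0.30. Low counts limit the precision of the lncRNA and MHC class II values, and the cause of the shift between scalings was not tested.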

Other observations

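Replication-dependent histone genes were higher in MM468/PR for 6 of 38, near the protein-coding background, and lower for 1 (1 of the higher and 1 of the lower one-sided, 14 higher with library totals). Their median log2 fold change was 0.57. The linker histone gene H1-4 had 9 counts in parental MM468, 11 in the adriamycin-resistant line and 53 in MM468/PR (4.43-fold higher). These short transcripts mostly lack a poly(A) tail and closely related copies can share reads. Among the clustered protocadherins, adhesion proteins encoded in 3 arrays on chromosome 5, the 16 beta genes had 7 lower and none higher (median -0.91, 3 of the lower one-sided). Of all protein-coding genes of chromosome 5, 30.7% were lower (median -0.67). PCDHB8 had 10, 507 and 18 counts in parental, adriamycin-resistant and MM468/PR cells (30.2-fold lower), with the caution that these genes are alike. HOX genes, which encode positional transcription factors, were near level with 3 of 27 higher and 4 lower (5 higher and 2 lower with library totals), and their median of -0.11 turned to 0.13 with library totals and 0.18 on TPM. HOXA9 was furthest up (15, 44 and 202 counts, 4.25-fold higher).

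Clade B serpins, intracellular protease inhibitors of stratified epithelium, were lower in MM468/PR for 5 of 11 and higher for 2. Their median was -0.86, and -0.08 on TPM, and 3 of the lower were one-sided. SERPINB2 had 6, 591 and 60 counts (10.6-fold lower). S100A genes, small calcium-binding proteins, had 4 of 14 higher (1 of them one-sided) and 2 lower (1 with library totals). Their median was -0.43, and -0.02 on TPM. Among the higher was S100A10 (4664, 2930 and 7174 counts, 2.27-fold higher) and among the lower S100A9 (5408, 13941 and 4935 counts, 3.04-fold lower). The TCEAL and BEX genes, neighbours on the X chromosome, had 3 of 6 higher and none lower. TCEAL8 had 2, 13 and 635 counts (44.9-fold higher), while TCEAL4 had 5124 in the adriamycin-resistant line and 4504 in MM468/PR and was within 2-fold. Of the 9 cancer-testis genes compared, whose products are otherwise found in germ cells, PRAME was higher (0, 23 and 332 counts, 13.3-fold higher) and MAGEC2 lower (0, 55 and 8 counts, 7.31-fold lower, one-sided). The median of the 9 was -0.43, and -0.03 on TPM.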
